A study of Mus musculus with 8 samples.

Results

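The comparison set the 3 gastrocnemius libraries titled Control against the 3 titled Normal, 6 of the 8 libraries of the series. Every gene that passed a filter on low counts was kept, which left 13174 of the 23282 rows in each deposited table. All mice were C57BL/6, listed at 4 weeks of age. By the titles and protocols, the Normal group received 100 µl of saline under the skin. The Control group received Lewis lung carcinoma cells, a mouse lung tumour line, in the same volume. Tumours grew for 2 weeks, the tumour-bearing mice were regrouped by tumour size, and both groups then drank 200 µl of distilled water a day by mouth as vehicle for 2 weeks. The other 2 libraries, from tumour-bearing mice given a plant extract, only helped to estimate the spread between libraries. Whether the libraries of a group come from different animals is not stated, and p-values here then cover only the variation among these samples.

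The labels of the 6 libraries conflict. Groups follow the sample titles, yet the table names and column headers of all 3 Normal-titled samples read Control, and those of all 3 Control-titled samples read Normal. A library is therefore named by its title and replicate (Control 1), and "higher" or "lower" always means in the Control-titled libraries, whose tables are headed Normal, against the Normal-titled libraries, whose tables are headed Control. If the table headers hold and the titles do not, every direction below changes sign.

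The gastrocnemius is a calf muscle made mostly of fast fibres, which contract with fast myosins, release calcium from a large sarcoplasmic reticulum and draw on glycolysis. In muscle wasting, which can accompany a tumour, fibres are known to raise ubiquitin ligases and protein breakdown, to lower contractile protein, and to respond to cytokines and glucocorticoids. Muscle also holds fibroblasts, vessels, nerves, blood and immune cells, whose RNA is part of a bulk sample. In such samples, fewer cells of a type and less RNA per cell cannot be told apart.

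The 6 libraries held 9989656 to 12333767 counts and 15176 to 15625 genes with a count. Genes of fast muscle were high in every library. Ckm, the muscle creatine kinase, was at 7828, 8578 and 11497 CPM among Normal-titled and 8792, 10545 and 7688 CPM among Control-titled libraries (here and below, in the order of replicates 1, 2 and 3). CPM here are counts scaled to TMM-normalized library sizes, and the marker sums that follow are CPM without TMM. All 10 skeletal muscle fibre markers were measured, with a summed level of 90589 to 99536 in the Normal-titled and 131460 to 142080 CPM in the Control-titled libraries. Of these 10 markers 2 were higher and 0 lower. Their median log2 change was 0.013, with 5 of the 10 above 0, so the sum does not stand for each marker. Markers of blood moved with the groups. The 8 erythroid markers summed to 31327 to 135320 against 10212 to 11743 CPM, and 7 of 8 were lower. The 8 neutrophil markers summed to 989 to 1956 against 11.5 to 23.1 CPM, and all 7 tested were lower. The tendon and fibroblast markers overlapped between groups (4436 to 8462 against 5637 to 6624), while the sum of the 6 adipocyte markers did not (1588 to 2160 against 2177 to 3152) although none passed the test. Of these only Car3 was apart by itself (1221, 877 and 1052 against 1440, 1431 and 1427 CPM). Adipoq, Plin1, Cidec, Cfd and Lep overlapped, so this sum does not stand for each marker either. Of the markers of brown fat and epithelium, Ucp1, Krt14, Krt1 and Krt8 were at 0 in all 6 libraries, but others were detected. The brown fat marker Cidea had counts in all 6 libraries. It was lower in every Control-titled library but did not pass (log2 change -0.703, edgeR adjusted p = 0.240). Krt10 was at 6.95 to 15.05 CPM without TMM, and Krt18 and Krt19 reached 1.45 and 1.54 CPM. The B and T cell markers summed to at most 0.901 CPM. The part of blood and of the other cell types in the results below was not tested. In 1 alternative fit log2 Hba-a1 entered as a covariate. Hba-a1, a haemoglobin gene, was itself lower in every Control-titled library, without overlap (15711, 33094 and 68079 against 5685, 6720 and 5790 CPM without TMM). That fit therefore cannot tell blood and group apart, and its smaller number of calls can also come from lost precision.

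Of the 13174 genes tested, 1376 (10.4%) passed a Benjamini-Hochberg threshold of 0.05 in edgeR's quasi-likelihood test, and these are called below. In the Control-titled libraries (tables headed Normal), 658 (4.99%) were higher and 718 (5.45%) lower. The changes were of similar size in both directions: 324 higher and 321 lower genes changed by at least 1 on the log2 scale, and the median absolute log2 change was 0.99 and 0.91. Of the called genes, 657 of the higher and 700 of the lower had groups that did not overlap in CPM, beside 4125 (31.3%) of all genes tested. The count rested on single libraries. It was 1858, 805 and 1511 without Normal 1, 2 and 3, and 609, 846 and 608 without Control 1, 2 and 3. Here and below, libraries were left out 1 at a time.

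A larger share of genes was called at higher expression. When the genes were split into quintiles by mean log2 CPM over the 6 libraries, 5.46% of the lowest, 7.82, 9.53 and 12.6% of the middle and 16.9% of the highest quintile were called. The direction shifted with level too. In the second lowest quintile 140 genes were higher and 66 lower, and in the highest quintile 177 were higher and 267 lower, again in titled Control (tables headed Normal). With upper-quartile normalization this tilt shrank to 212 higher and 225 lower in the highest quintile, and the second highest quintile turned from 139 higher and 192 lower to 169 and 160. The median log2 change of all genes in a quintile fell from 0.11 in the lowest to -0.056 in the highest. Precision moved with level in the same order: the median SE of the log2 change was 0.518 in the lowest and 0.156 in the highest quintile. Called genes of the lowest quintile changed by a median of 2.67 and those of the highest by 0.77 (absolute log2 change).

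**Figure D1:**
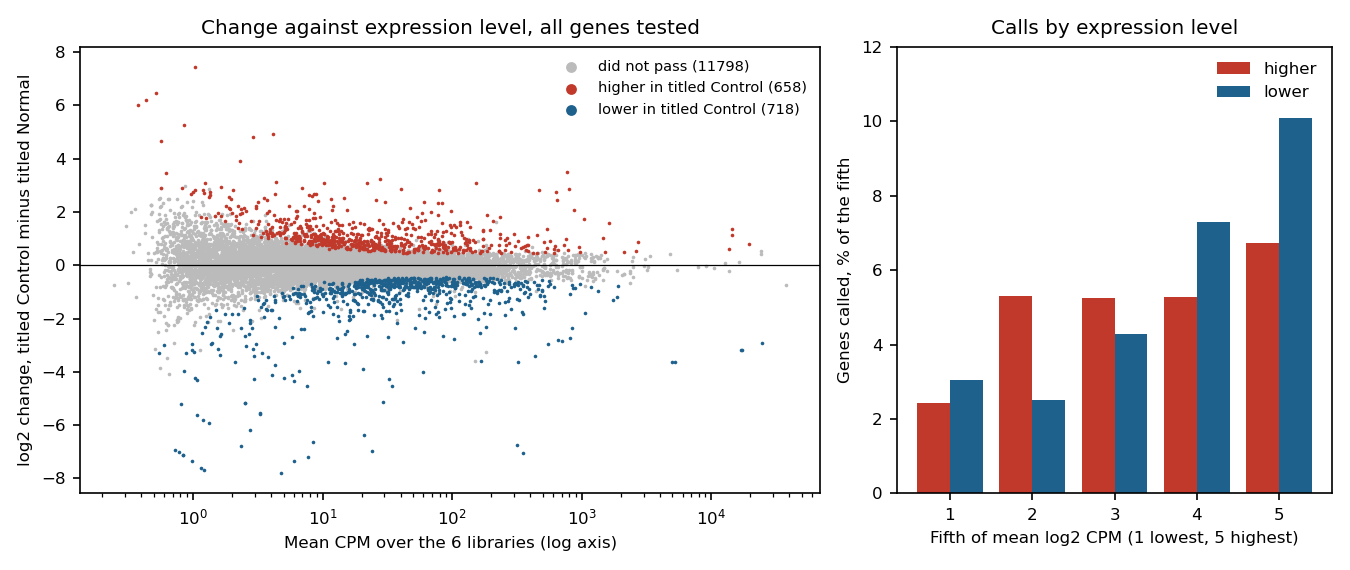
Left, log2 change (titled Control minus titled Normal) against mean CPM over the 6 libraries on a log axis, 1 point a gene, with called genes in red (658 higher) and blue (718 lower). Right, the percentage of each quintile of expression level called higher or lower. Lower calls outnumber higher ones in the 2 highest quintiles, and the highest quintile holds most calls (16.9%).

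Replicates were less alike in the Normal-titled group. The median SD of log2 CPM over genes was 0.285 in the Normal-titled and 0.180 in the Control-titled libraries, and 68.7% of genes had the larger SD in the Normal-titled group. In the highest quintile these were 0.222 and 0.103, with 79.3% of genes more variable in the Normal-titled libraries. Across genes, log2 CPM correlated with r of 0.956 to 0.972 among the Normal-titled, 0.979 to 0.981 among the Control-titled and 0.940 to 0.951 between the groups, values that share the same genes and no independent replicates.

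Whole classes of transcript took different shares of the counts. Myosin, actin, tropomyosin and troponin genes, the contractile filaments, held 11.5, 12.5 and 12.2% of counts in the Normal-titled and 18.4, 18.9 and 17.4% in the Control-titled libraries (tables headed Normal). The groups did not overlap, and the exact permutation test gave p = 0.1 (2-sided, 3 against 3), the smallest p that this design allows. It therefore cannot pass 0.05 for any class. Nuclear-coded genes of the respiratory chain and ATP synthase, which make mitochondrial ATP, held 4.36, 4.30 and 3.97% against 5.65, 5.36 and 5.65% (exact p = 0.1). Collagen genes, the fibrous proteins of the matrix, held 0.252, 0.153 and 0.0512% against 0.626, 0.525 and 0.604% (exact p = 0.1). Again the 3 Control-titled libraries lay close together, while the Normal-titled ones ran from a low in Normal 3 to a high in Normal 1.

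Other classes held less of the Control-titled libraries (tables headed Normal). Haemoglobin genes held 4.57, 9.56 and 19.7% of counts in the Normal-titled and 1.47, 1.61 and 1.41% in the Control-titled libraries, with exact p = 0.1. Metallothioneins, small metal-binding proteins, held 0.271, 0.139 and 0.116% against 0.0186, 0.0198 and 0.0264% (exact p = 0.1), and proteasome subunits, which form the main protein-degrading machine, 0.729, 1.02 and 0.738% against 0.604, 0.604 and 0.599% (exact p = 0.1). Cytosolic ribosomal protein genes overlapped, at 3.28, 4.28 and 3.88% against 3.48, 3.32 and 3.29% (exact p = 0.4). With haemoglobin genes and Rn45s taken out of the totals they did not: the shares were 3.76, 4.89 and 5.04% against 3.60, 3.54 and 3.43% (exact p = 0.1). Glycolytic enzyme genes went the other way, from 1.63, 1.73 and 1.87% against 2.20, 2.35 and 2.15% (exact p = 0.1) to overlapping shares without those genes (exact p = 0.3). Rn45s, the precursor of ribosomal RNA, held 8.12, 2.80 and 3.16% in the Normal-titled and 1.82, 4.43 and 2.57% in the Control-titled libraries and did not separate them (exact p = 0.5).

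**Figure D2:**
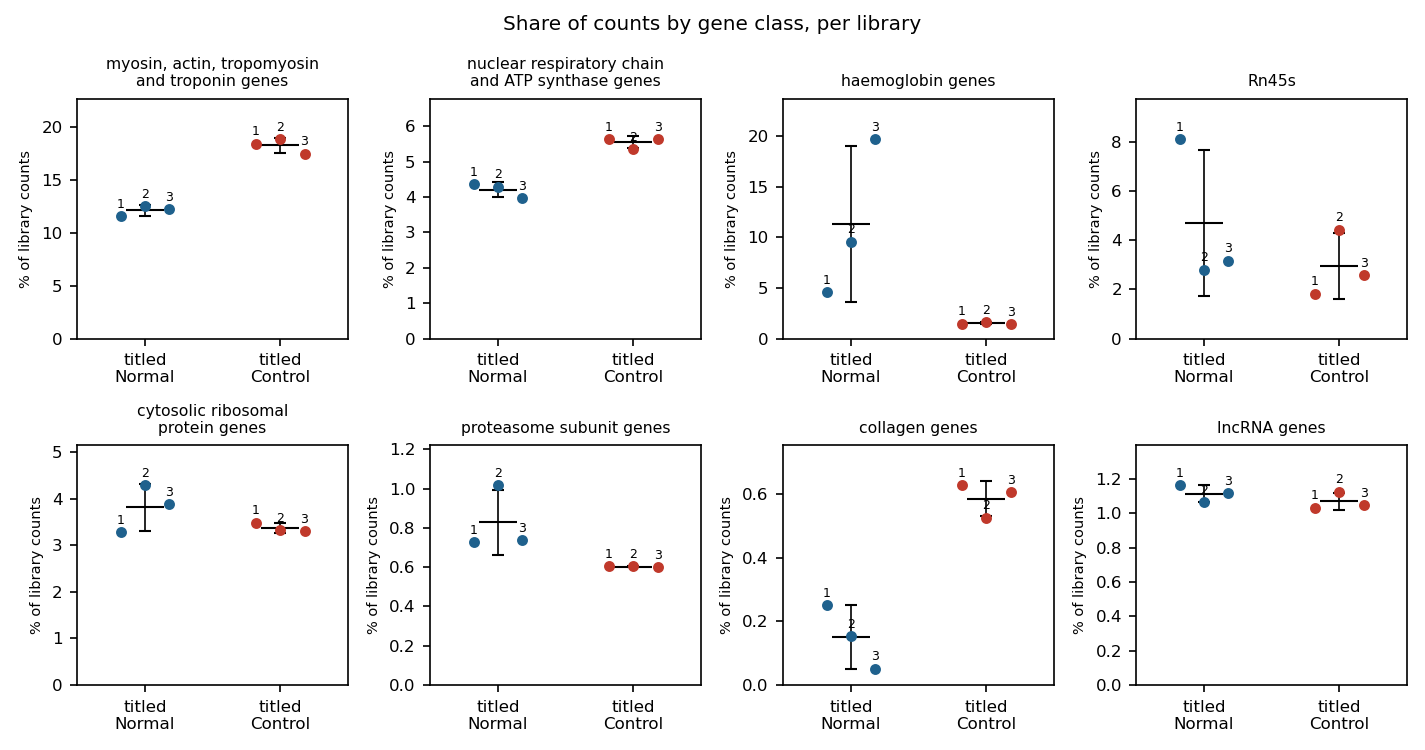
Share of each library's counts held by 8 gene classes, in percent, with 1 point a library (numbered by replicate), the mean as a line and the SD as bars (n = 3). Contractile, respiratory and collagen genes lie higher in all 3 Control-titled libraries, haemoglobin and proteasome genes lower, and ribosomal protein, Rn45s and lncRNA genes overlap in these shares of all counts.

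RefSeq types matched 12597 tested genes as protein-coding, of which 638 were higher and 691 lower in titled Control, headed Normal (10.6%), and 418 as long noncoding RNA (lncRNA), of which 16 were higher and 17 lower (7.89%). From the lowest to the highest quintile of expression 3.1, 12, 10.9, 16.1 and 21.7% of lncRNA genes were called, beside 5.76, 7.63, 9.53, 12.5 and 16.8% of protein-coding genes. The lowest quintile held 226 of the 418 lncRNA genes and the highest 23, and no test of the difference was run. The lncRNA genes held 1.16, 1.06 and 1.12% of counts against 1.03, 1.13 and 1.05% (exact p = 0.3). With haemoglobin genes and Rn45s taken out of the totals the groups did not overlap, at 1.33, 1.21 and 1.45% against 1.07, 1.2 and 1.09% (exact p = 0.1). Of 121 small nucleolar RNA rows 5 passed the filter on low counts, and 2 of those 5 were lower. No microRNA or mitochondrially coded gene was among those tested.

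Among the lncRNA genes with the most counts, 2310065F04Rik (chromosome 11, 67112461 to 67120080), on the same chromosome as the fast myosin gene Myh4 (chromosome 11, 67237812 to 67260447), was at 45.8, 55.9 and 67.8 CPM among Normal-titled and 177, 157 and 182 CPM among Control-titled libraries. All 3 Control-titled libraries (tables headed Normal) were far above the Normal-titled ones (log2 change 1.6 ± 0.163 (SE), edgeR adjusted p = 6.97e-05). AW112010, a transcript known from activated immune cells, was at 26.8, 24 and 24.8 CPM among Normal-titled and 53.7, 49.4 and 51.5 CPM among Control-titled libraries. AW112010 had a log2 change of 1.03 ± 0.144 (SE) at an edgeR adjusted p of 0.000717. On the lower side, 2410006H16Rik (chromosome 11, 62602877 to 62604806), whose gene body holds Snord49a, Snord49b and Snord65, was at 116, 273 and 164 CPM among Normal-titled and 81, 59.1 and 59.9 CPM among Control-titled libraries. 2410006H16Rik had a log2 change of -1.47 ± 0.274 (SE) at an edgeR adjusted p of 0.0048. Malat1, a nuclear lncRNA, was at 1727, 690.4 and 902 CPM among Normal-titled and 410.1, 719 and 461 CPM among Control-titled libraries, so that its groups overlapped. Its edgeR adjusted p was 0.043. It was not called without Normal 1 (adjusted p = 0.114), Control 1 (adjusted p = 0.177) and Control 3 (adjusted p = 0.165). C130080G10Rik (chromosome 2, 114054396 to 114061505) lies beside Actc1 (chromosome 2, 114047282 to 114052875) and was at 0.27, 0.383 and 0.0971 CPM among Normal-titled and 9.88, 7.6 and 6.78 CPM among Control-titled libraries (edgeR adjusted p = 3.06e-05). Its Normal-titled values stand for a handful of reads or fewer.

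Gene families were defined by symbol patterns: 114 families, of which 98 had at least 10 tested members. In 21 of the 98 at least 25% of the tested members were called, beside 10.4% of all genes. Most families were mixed, with called members in both directions in 62, while 6 had at least 5 called members in 1 direction only. Family values moved with the Hba-a1 covariate, which left 382 called genes in all and turned the sign of the median log2 change in 33 of the 98. Below, the count and the median log2 change with this covariate stand in brackets after the counts without single libraries. Families with many members called lower in the Control-titled libraries (tables headed Normal) were the transcription factors of the AP-1, ATF and CEBP group, proteasome subunits and Z-disc proteins, and those with many called higher were collagens, small proteoglycans and interferon-inducible GTPases. Large families also stayed near or below the background: 4 of 309 Zfp zinc finger genes were higher and 6 lower (3.24%), 1 of 63 RING finger genes higher and 2 lower, 1 of 44 Rab GTPases higher and 1 lower, 1 of 77 mitochondrial ribosomal protein genes higher, 1 of 29 histone genes higher, and none of 26 Hox genes in either direction.

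**Figure D3:**
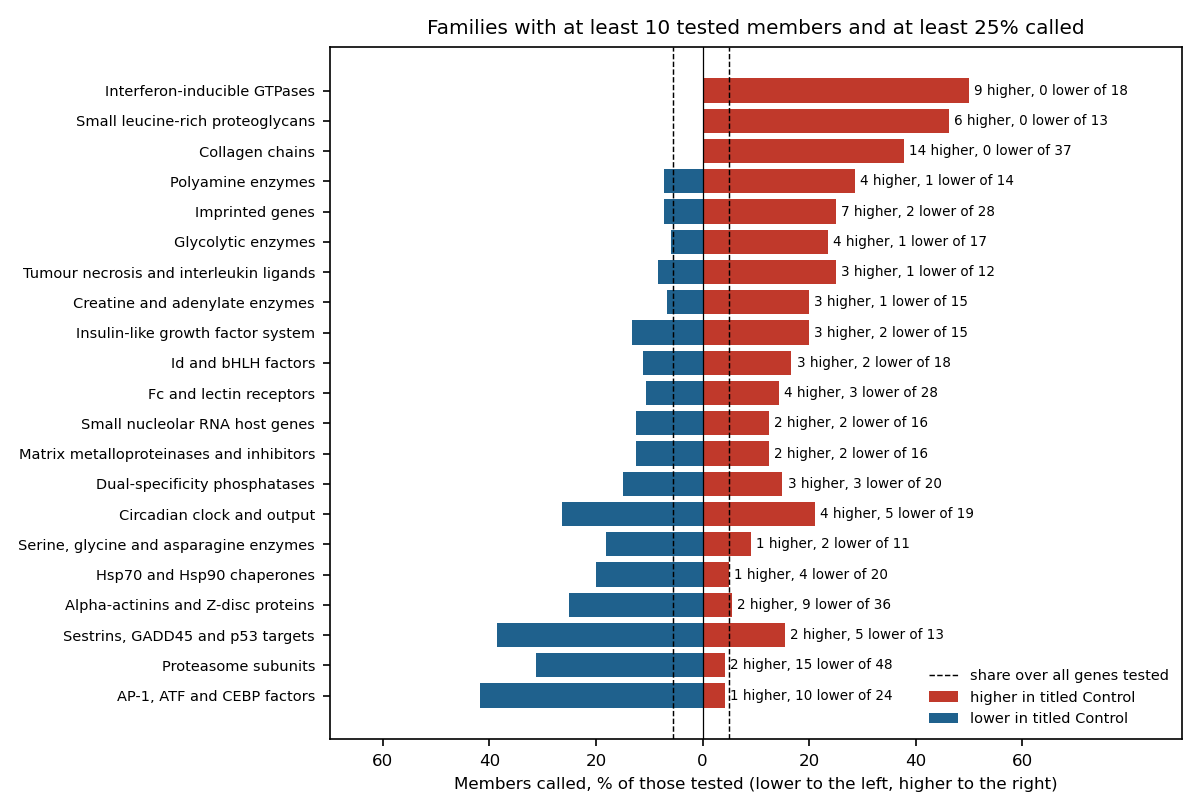
Percentage of tested members called higher (red, right) or lower (blue, left) in the Control-titled libraries, for the 21 families with at least 10 tested members and at least 25% called. Dashed lines mark the shares over all genes tested, 4.99% higher and 5.45% lower, and the counts stand beside each bar.

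Contractile and calcium-handling genes were 6 of the 10 called genes with the largest gains in CPM, beside 1 glycolytic and 3 matrix genes described further on. Myl1, the alkali light chain of fast myosin (chromosome 1, 66924295 to 66947932), was at 7688, 9139 and 7529 CPM among Normal-titled and 20509, 22134 and 19353 CPM among Control-titled (headed Normal) libraries. Myl1 had a log2 change of 1.35 ± 0.155 (SE) at an edgeR adjusted p of 0.00018. Pvalb, parvalbumin, the calcium buffer of fast fibres (chromosome 15, 78191112 to 78206400), was at 8171, 9151 and 10143 CPM among Normal-titled and 21251, 19433 and 18933 CPM among Control-titled libraries. Pvalb had a log2 change of 1.12 ± 0.154 (SE) at an edgeR adjusted p of 0.00067. In both, the replicates of each group lay close together and the groups did not overlap. Tpm1, alpha-tropomyosin, was at 13829, 14310 and 14544 CPM among Normal-titled and 24707, 27694 and 21285 CPM among Control-titled libraries. Tpm1 had a log2 change of 0.79 ± 0.157 (SE) at an edgeR adjusted p of 0.00655. Casq1, the calsequestrin of fast sarcoplasmic reticulum (chromosome 1, 172209894 to 172219895), was at 476, 408 and 576 CPM among Normal-titled and 1555, 1647 and 1623 CPM among Control-titled libraries. Casq1 had a log2 change of 1.72 ± 0.159 (SE) at an edgeR adjusted p of 3.92e-05. Actc1, the cardiac form of alpha-actin that adult skeletal muscle uses little, was at 158, 149 and 70.7 CPM among Normal-titled and 1725, 1276 and 1248 CPM among Control-titled libraries. Actc1 had a log2 change of 3.49 ± 0.291 (SE) at an edgeR adjusted p of 3.03e-05. Mylk4, a kinase of the myosin light chain kinase family, was higher by 1.35 on the log2 scale (771 ± 55 against 302 ± 45.9 CPM, mean ± SD, n = 3, Control-titled then Normal-titled; edgeR adjusted p = 0.000137). By edgeR, the fast heavy chain Myh4 (log2 change -0.22, adjusted p = 0.539), Tnnt3 (0.07, adjusted p = 0.847) and Acta1 (0.43, adjusted p = 0.108) did not pass. Mylpf, the other fast light chain (log2 change 0.63, edgeR adjusted p = 0.0321), was not called without Normal 2 (adjusted p = 0.117), Control 1 (adjusted p = 0.113), Control 2 (adjusted p = 0.147) and Control 3 (adjusted p = 0.0547). Of all 44 myosin genes 3 were higher and 4 lower. The count was 8, 5 and 7 without Normal 1, 2 and 3 and 5, 5 and 4 without Control 1, 2 and 3 (with the Hba-a1 covariate 3 higher and 1 lower, median -0.23).

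Of 14 sodium channel and Na,K-ATPase genes 3 were higher and none lower, with a family median of -0.09, and of 41 potassium channel genes 3 were higher and 2 lower. Scn4b, a beta subunit of voltage-gated sodium channels, was higher by 0.76 (111 ± 6.01 against 65.9 ± 3.69 CPM, edgeR adjusted p = 0.00534), and Atp1b2, a beta subunit of the sodium pump, by 0.84 on the log2 scale (162 ± 17.2 against 90.5 ± 17 CPM, edgeR adjusted p = 0.00515; here and below a pair of CPM means is Control-titled against Normal-titled, ± SD, n = 3). In both genes all 3 Control-titled libraries (tables headed Normal) lay above all 3 Normal-titled ones. Called members of the sodium channel and Na,K-ATPase family numbered 4, 3 and 4 without Normal 1, 2 and 3 and 3, 3 and 3 without Control 1, 2 and 3 (with the Hba-a1 covariate 2 higher and 0 lower, median -0.24).

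Proteins of the Z-disc, where thin filaments are anchored, and of stretch sensing went the other way, with 2 of 36 tested members higher and 9 lower and a family median of -0.19 (0.00 over all genes). Nrap, a scaffold of myofibril assembly (chromosome 19, 56320037 to 56390062), was at 655, 789 and 668 CPM among Normal-titled and 307, 370.3 and 271 CPM among Control-titled (headed Normal) libraries. Nrap had a log2 change of -1.16 ± 0.155 (SE) at an edgeR adjusted p of 0.000572. Flnc, filamin C (chromosome 6, 29433153 to 29461889), was at 414, 268 and 139 CPM among Normal-titled and 54.9, 107 and 71.6 CPM among Control-titled libraries (log2 change -1.81 ± 0.334 (SE), edgeR adjusted p = 0.00436), and Csrp3, the muscle LIM protein, at 339, 331 and 167 CPM among Normal-titled and 74, 126 and 105 CPM among Control-titled libraries. Csrp3 had a log2 change of -1.46 ± 0.258 (SE) at an edgeR adjusted p of 0.00347. In Flnc and Csrp3 Normal 3 was the lowest of the Normal-titled libraries and nearest to the Control-titled ones. Ankrd2, an ankyrin repeat protein linked to stretch, fell by 1.15 on the log2 scale (294 ± 29.7 against 654 ± 172 CPM, edgeR adjusted p = 0.00186). Ankrd1, its cardiac relative, ran from 199 to 983 CPM in the Normal-titled and from 10.1 to 109 CPM among Control-titled libraries (log2 change -3.65, edgeR adjusted p = 0.0138) and was not called without Control 3 (adjusted p = 0.0805). Xirp1 (log2 change -2.53, edgeR adjusted p = 0.0103) was not called without Control 1 (adjusted p = 0.0555) and Control 3 (adjusted p = 0.0555). Myoz3, a calsarcin of fast fibres, was the clearest exception, at 33.5, 21.8 and 34.2 CPM among Normal-titled and 84.7, 85.8 and 70.8 CPM among Control-titled libraries. Myoz3 had a log2 change of 1.43 ± 0.181 (SE) at an edgeR adjusted p of 0.000361. The number of called members was 14, 8 and 9 without Normal 1, 2 and 3 and 6, 7 and 5 without Control 1, 2 and 3 (with the Hba-a1 covariate 1 higher and 4 lower, median -0.14).

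Genes for making ribosomes and starting translation were called almost only on the lower side, while 1 ribosomal protein gene was called. The ribosome biogenesis family had 0 of 54 tested members higher and 13 lower (median log2 change -0.31). Gnl3, nucleostemin, a nucleolar GTPase (chromosome 14, 31012433 to 31019131), was at 117, 93.6 and 81.1 CPM among Normal-titled and 36.7, 38.7 and 44.4 CPM among Control-titled (headed Normal) libraries. Gnl3 had a log2 change of -1.29 ± 0.16 (SE) at an edgeR adjusted p of 0.00031. Ddx21, a nucleolar RNA helicase (chromosome 10, 62580247 to 62602298), was at 153, 121 and 103 CPM among Normal-titled and 57.1, 76.8 and 55.1 CPM among Control-titled libraries. Ddx21 had a log2 change of -1.0 ± 0.178 (SE) at an edgeR adjusted p of 0.00363. The groups were apart in both, with Normal 1 highest. Nop14 (-0.89, edgeR adjusted p = 0.00292) and Nop58 (-0.76, edgeR adjusted p = 0.00476), which act in processing of ribosomal RNA, were lower as well. Npm1, the abundant nucleolar chaperone (log2 change -0.65, edgeR adjusted p = 0.00956), was not called without Control 1 (adjusted p = 0.0629) and Control 3 (adjusted p = 0.0582). The helicase family of Ddx (DEAD-box) and Dhx (DEAH-box) genes, which overlaps this family in Ddx21, had 0 of 49 tested members higher and 8 lower. The 34 Ddx genes had 0 higher and 7 lower, and the 15 Dhx genes 0 higher and 1 lower. Ddx56, another nucleolar helicase, was at 31.7, 34 and 33.1 CPM among Normal-titled and 16.5, 15.9 and 16.5 CPM among Control-titled libraries. Ddx56 had a log2 change of -1.01 ± 0.143 (SE) at an edgeR adjusted p of 0.000759. Called ribosome biogenesis genes numbered 14, 8 and 12 without Normal 1, 2 and 3 and 5, 8 and 5 without Control 1, 2 and 3 (with the Hba-a1 covariate 0 higher and 4 lower, median -0.36), and Ddx and Dhx helicases 9, 6 and 10 without Normal 1, 2 and 3 and 3, 6 and 4 without Control 1, 2 and 3 (with the Hba-a1 covariate 0 higher and 2 lower, median -0.40).

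Translation initiation factors and their regulators had 1 of 53 tested members higher and 12 lower (median -0.30). The largest change was in Eif4ebp1, which is no initiation factor but the repressor that binds the cap-binding protein (chromosome 8, 27260327 to 27275656). It was at 166, 308 and 287 CPM among Normal-titled and 68.5, 59.4 and 60.7 CPM among Control-titled (headed Normal) libraries. Eif4ebp1 had a log2 change of -2.01 ± 0.208 (SE) at an edgeR adjusted p of 7.77e-05. Normal 1 was the lowest of its group and still above every Control-titled library. Eif3j2 fell by 0.97 on the log2 scale (edgeR adjusted p = 0.00455), but 84.7% of the words at its 3' end are shared with other transcripts. The factor Eif5b (-0.71, edgeR adjusted p = 0.0109) was not called without Control 1 (adjusted p = 0.0735) and Control 3 (adjusted p = 0.076), and Eif3a, a core subunit of the scaffold factor eIF3 (-0.66, edgeR adjusted p = 0.0177), was not called without Normal 2 (adjusted p = 0.0527), Control 1 (adjusted p = 0.101) and Control 3 (adjusted p = 0.092). The single higher member, Eif2ak1, the haem-regulated kinase that shuts initiation down (0.70, edgeR adjusted p = 0.0143), was not called without Normal 2 (adjusted p = 0.0714), Control 1 (adjusted p = 0.0608), Control 2 (adjusted p = 0.0587) and Control 3 (adjusted p = 0.0507). Called members of this family numbered 20, 6 and 11 without Normal 1, 2 and 3 and 2, 7 and 2 without Control 1, 2 and 3 (with the Hba-a1 covariate 1 higher and 2 lower, median -0.15). They were 2 higher and 7 lower with upper-quartile scaling and 1 higher and 6 lower with the replicate number as a block.

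Among 86 tested cytosolic ribosomal protein genes none was higher and 1 lower in titled Control, headed Normal (1.16%), yet their median log2 change was -0.31 (with the Hba-a1 covariate 0 higher and 0 lower, median 0.15), and 22 had all Control-titled below all Normal-titled libraries (25.6% of them, beside 14.7% of all genes). The call depended on Normal 1: without it 59 of the 86 passed, and without any of the other 5 libraries none did. The mean level of the family, as log2 CPM relative to the mean of the 6 libraries, was -0.16, 0.23 and 0.36 in the Normal-titled and -0.12, -0.08 and -0.23 in the Control-titled libraries. Normal 1 thus lay among the Control-titled libraries. The single called gene, Rps27 (log2 change -0.64, edgeR adjusted p = 0.0318), was lost without Normal 2 (adjusted p = 0.0765), Normal 3 (adjusted p = 0.072), Control 1 (adjusted p = 0.108), Control 2 (adjusted p = 0.0901) and Control 3 (adjusted p = 0.136). The DESeq2 fit called 1 higher and 9 lower. With the Hba-a1 covariate the log2 change of 69 of the 86 genes turned sign. Of the 9 elongation factors none was called, and of the 34 aminoacyl-tRNA synthetases 1 was higher and 1 lower.

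Small heat-shock proteins, which hold unfolding proteins in the cytosol and at the Z-disc, had 0 of 8 tested members higher and 4 lower. Cryab, alphaB-crystallin (chromosome 9, 50745951 to 50756636), was at 3186, 2756 and 1443 CPM among Normal-titled and 867, 1163 and 957 CPM among Control-titled (headed Normal) libraries. Cryab had a log2 change of -1.31 ± 0.252 (SE) at an edgeR adjusted p of 0.00553. Hspb7 (chromosome 4, 141420779 to 141425310) was at 284, 253 and 185 CPM among Normal-titled and 76.2, 119 and 112 CPM among Control-titled libraries (log2 change -1.23 ± 0.204 (SE), edgeR adjusted p = 0.0023), and Hsph1, a large Hsp70 relative, fell by 0.89 on the log2 scale (32.7 ± 1.73 against 60.5 ± 10.0 CPM, edgeR adjusted p = 0.00389). Hspb1 (-1.78, edgeR adjusted p = 0.0131) was not called without Control 1 (adjusted p = 0.0658) and Control 3 (adjusted p = 0.0739), and Hsp90ab1 (-0.77, edgeR adjusted p = 0.0175) was not called without Normal 2 (adjusted p = 0.0807), Control 1 (adjusted p = 0.104) and Control 3 (adjusted p = 0.106). The peptidyl-prolyl isomerases, which turn proline bonds during folding, had 4 of 22 tested members higher and 1 lower. Fkbp5, a co-chaperone of the glucocorticoid receptor in the cytosol (chromosome 17, 28398753 to 28486149), was the lower one, at 171, 89.3 and 98.4 CPM among Normal-titled and 33.8, 42.6 and 29.7 CPM among Control-titled libraries. Fkbp5 had a log2 change of -1.76 ± 0.23 (SE) at an edgeR adjusted p of 0.000456. The higher ones work in the secretory pathway: Fkbp14 was at 7.56, 7.18 and 8.64 CPM among Normal-titled and 20.5, 17.6 and 18.3 CPM among Control-titled libraries (log2 change 1.27 ± 0.178 (SE), edgeR adjusted p = 0.000717), with Ppic higher by 1.05, Fkbp7 by 0.94 and Fkbp9 by 0.74 on the log2 scale (edgeR adjusted p = 0.000717, 0.00484 and 0.00959). Called small heat-shock proteins numbered 3, 3 and 4 without Normal 1, 2 and 3 and 2, 3 and 2 without Control 1, 2 and 3 (with the Hba-a1 covariate 0 higher and 3 lower, median -0.81), and isomerases 7, 5 and 6 without Normal 1, 2 and 3 and 5, 5 and 5 without Control 1, 2 and 3 (with the Hba-a1 covariate 1 higher and 1 lower, median 0.20). Among other chaperone families, Hsp70 and Hsp90 genes had 1 of 20 higher and 4 lower, and DnaJ co-chaperones 2 of 38 higher and 3 lower. Bag co-chaperones had 1 of 6 higher and 0 lower, and 0 of 13 chaperonin and prefoldin genes were called.

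Proteasome subunits were called in both directions. Of 48 proteasome subunits 2 were higher and 15 lower. The lower ones belong to the standard particle: Psmd11, a subunit of the regulatory lid, was at 218, 222 and 167 CPM among Normal-titled and 76.5, 111 and 77.2 CPM among Control-titled (headed Normal) libraries. Psmd11 had a log2 change of -1.2 ± 0.182 (SE) at an edgeR adjusted p of 0.00125. Psmd4, a ubiquitin receptor of the proteasome, fell by 1.2 on the log2 scale (234 ± 29.2 against 536 ± 185 CPM, edgeR adjusted p = 0.00504). The 2 higher members were the interferon-induced catalytic subunits Psmb9, at 4.68, 6.51 and 4.95 CPM among Normal-titled and 18.7, 9.9 and 12.1 CPM among Control-titled libraries (log2 change 1.34 ± 0.312 (SE), edgeR adjusted p = 0.0157), and Psmb8, at 19.9, 19.9 and 14.1 CPM among Normal-titled and 38.3, 22.1 and 31.5 CPM among Control-titled libraries. Psmb8 had a log2 change of 0.77 ± 0.214 (SE) at an edgeR adjusted p of 0.0362. In edgeR, Psmb9 was not called without Control 1 (adjusted p = 0.104), and Psmb8 was not called without Normal 2 (adjusted p = 0.0708), Normal 3 (adjusted p = 0.0816), Control 1 (adjusted p = 0.186) and Control 3 (adjusted p = 0.117). Called proteasome subunits numbered 29, 6 and 17 without Normal 1, 2 and 3 and 6, 11 and 5 without Control 1, 2 and 3 (with the Hba-a1 covariate 0 higher and 1 lower, median -0.15).

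Calls among inducible transcription factors were mostly on the lower side. The AP-1, ATF and CEBP factors, leucine-zipper proteins that answer stress and cytokines, had 1 of 24 tested members higher and 10 lower, with a median of -0.50. Cebpd (chromosome 16, 15887286 to 15889545) was at 335, 229 and 354 CPM among Normal-titled and 97.1, 105 and 59.2 CPM among Control-titled (headed Normal) libraries. Cebpd had a log2 change of -1.81 ± 0.232 (SE) at an edgeR adjusted p of 0.000398. Maff, a small Maf protein, was at 27, 22.9 and 25.7 CPM among Normal-titled and 8.29, 7.7 and 6.24 CPM among Control-titled libraries (log2 change -1.76 ± 0.192 (SE), edgeR adjusted p = 0.000116), and Jun, an AP-1 subunit (chromosome 4, 95049036 to 95052222), at 317, 258 and 312 CPM among Normal-titled and 142, 171 and 121 CPM among Control-titled libraries. Jun had a log2 change of -1.03 ± 0.189 (SE) at an edgeR adjusted p of 0.00413. The groups were well apart in all 3 genes. The single higher member, Fosb, was at 2.88, 1.44 and 2.91 CPM among Normal-titled and 8.99, 17.6 and 3.44 CPM among Control-titled libraries, highest in Control 2, and its adjusted p of 0.0188 in edgeR was lost without Normal 2 (adjusted p = 0.0866) and Control 2 (adjusted p = 0.101). Called members numbered 10, 8 and 12 without Normal 1, 2 and 3 and 6, 7 and 5 without Control 1, 2 and 3 (with the Hba-a1 covariate 0 higher and 4 lower, median -0.53). Myod1, the master factor of muscle identity (chromosome 7, 46376474 to 46379092), was lower as well, at 23.5, 30.8 and 26.8 CPM among Normal-titled and 6.08, 9.9 and 5.88 CPM among Control-titled libraries. Myod1 had a log2 change of -1.89 ± 0.222 (SE) at an edgeR adjusted p of 0.000197. Its own family, the Id and bHLH factors, was called in both directions, with 3 of 18 tested members higher and 2 lower (median 0.027).

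Cytokine and interleukin receptors had 1 of 40 tested members higher and 8 lower. Tnfrsf12a, the receptor of the cytokine TWEAK (chromosome 17, 23675445 to 23677449), was at 46.2, 43 and 25 CPM among Normal-titled and 5.91, 7.1 and 5.33 CPM among Control-titled (headed Normal) libraries. Tnfrsf12a had a log2 change of -2.64 ± 0.269 (SE) at an edgeR adjusted p of 6.97e-05. The signalling chains Il6ra (-1.84), Osmr (-1.69) and Il4ra (-1.47) were lower with edgeR adjusted p of 0.000181, 0.000839 and 0.000187, at 5.25 ± 0.914 against 18.7 ± 2.74 CPM, 7.76 ± 1.18 against 25 ± 6.21 CPM and 15.2 ± 0.661 against 42.3 ± 8.3 CPM. Csf2rb, the shared chain of the IL-3, IL-5 and GM-CSF receptors, which blood cells carry, was at 29.6, 26.6 and 21.5 CPM among Normal-titled and 4.32, 5.6 and 9.49 CPM among Control-titled libraries. Csf2rb had a log2 change of -2.0 ± 0.296 (SE) at an edgeR adjusted p of 0.00107. It moved with the neutrophil markers given above, and their part in it was not tested. Leaving out libraries gave 10, 8 and 12 without Normal 1, 2 and 3 and 7, 9 and 8 without Control 1, 2 and 3 (with the Hba-a1 covariate 0 higher and 6 lower, median -0.37).

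Stress and p53-linked genes had 2 of 13 members higher and 5 lower (median log2 change -0.22). Cdkn1a, the cell-cycle inhibitor p21 (chromosome 17, 29090979 to 29100722), was at 111, 79.5 and 119 CPM among Normal-titled and 12.1, 22.8 and 19.6 CPM among Control-titled (headed Normal) libraries. Cdkn1a had a log2 change of -2.51 ± 0.226 (SE) at an edgeR adjusted p of 3.2e-05. Sesn1 and Ddit4, which restrain the growth kinase complex mTORC1, fell by 1.35 and 1.34 on the log2 scale (21.1 ± 2.76 against 53.7 ± 16.3 CPM and 78.5 ± 29 against 198 ± 29.1 CPM, edgeR adjusted p = 0.00125 and 0.00451). Trp53inp2, which acts in autophagy, went up, at 108, 88.4 and 111 CPM among Normal-titled and 235, 259.7 and 246 CPM among Control-titled libraries. Trp53inp2 had a log2 change of 1.27 ± 0.142 (SE) at an edgeR adjusted p of 0.000137. Glutathione and thioredoxin enzymes, which handle oxidants, were divided, with 5 of 54 higher and 7 lower (median log2 change -0.012). Gclm, a subunit of the enzyme that starts glutathione synthesis, was at 31.5, 26.1 and 23.4 CPM among Normal-titled and 9.44, 12.3 and 8.77 CPM among Control-titled libraries. Gclm had a log2 change of -1.41 ± 0.205 (SE) at an edgeR adjusted p of 0.000937. Gpx3, the secreted glutathione peroxidase, fell by 1.09 on the log2 scale (257 ± 13.9 against 546 ± 83.3 CPM, edgeR adjusted p = 0.00191), and Gstt1, a glutathione transferase, higher by 0.92 (27.5 ± 1.84 against 14.6 ± 2.58 CPM, edgeR adjusted p = 0.0052). Called members of this family numbered 14, 7 and 14 without Normal 1, 2 and 3 and 6, 7 and 5 without Control 1, 2 and 3 (with the Hba-a1 covariate 0 higher and 4 lower, median 0.13), and stress and p53-linked genes 6, 6 and 9 without Normal 1, 2 and 3 and 5, 5 and 5 without Control 1, 2 and 3 (with the Hba-a1 covariate 1 higher and 2 lower, median 0.0099).

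Called collagen chains were all on the higher side. Collagens had 14 of 37 tested members higher and 0 lower, 37.8% against a background of 4.99% called higher, and a median log2 change of 1.11. Col6a1 (chromosome 10, 76708792 to 76726044) and Col6a2 (chromosome 10, 76595756 to 76623630), neighbouring genes for the beaded collagen VI around fibres, were at 22.7, 23.7 and 12.8 CPM among Normal-titled and 105, 90.5 and 109.7 CPM among Control-titled libraries and at 21, 28.7 and 9.32 CPM among Normal-titled and 160.2, 109 and 147 CPM among Control-titled libraries (log2 change 2.37 ± 0.212 and 2.82 ± 0.312 (SE), edgeR adjusted p = 3.2e-05 and 0.000135). In both the Control-titled libraries (tables headed Normal) were close together and Normal 3 was lowest. Col5a1 and Col5a3, which set fibril diameter, were higher by 2.32 and 2.16 (edgeR adjusted p = 0.000398 and 6.87e-05), and Col15a1, a basement-membrane collagen, by 1.99 (edgeR adjusted p = 0.00132). Col3a1, a chain of thin fibrils, was at 228, 294 and 63.3 CPM among Normal-titled and 1514, 1266 and 1435 CPM among Control-titled libraries. Col3a1 had a log2 change of 2.85 ± 0.393 (SE) at an edgeR adjusted p of 0.00067. Col1a2 (log2 change 2.07, edgeR adjusted p = 0.0197) was not called without Normal 2 (adjusted p = 0.0912), Control 1 (adjusted p = 0.0603) and Control 3 (adjusted p = 0.056). Its partner Col1a1, in the main fibre of tendon and muscle sheath, was at 390, 179 and 31.4 CPM among Normal-titled and 1164, 1101 and 1010.1 CPM among Control-titled libraries (log2 change 2.45 ± 0.583 (SE), edgeR adjusted p = 0.0175) and was not called without Normal 2 (adjusted p = 0.0824), Control 1 (adjusted p = 0.0534) and Control 3 (adjusted p = 0.0525). The number of called collagens was 23, 7 and 15 without Normal 1, 2 and 3 and 8, 11 and 8 without Control 1, 2 and 3 (with the Hba-a1 covariate 3 higher and 1 lower, median 0.33).

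The small leucine-rich proteoglycans had 6 of 13 tested members higher and 0 lower (median 0.68). Ogn, osteoglycin (chromosome 13, 49608015 to 49624501), was at 108, 126 and 109.9 CPM among Normal-titled and 224, 221 and 244 CPM among Control-titled (headed Normal) libraries (log2 change 1.0 ± 0.136 (SE), edgeR adjusted p = 0.000626), and Lum, lumican, at 72.9, 70.7 and 53.3 CPM among Normal-titled and 148, 131 and 148 CPM among Control-titled libraries. Lum had a log2 change of 1.12 ± 0.16 (SE) at an edgeR adjusted p of 0.000842. The matrix gene with the largest gain in CPM was Sparc, a collagen-binding glycoprotein (chromosome 11, 55394159 to 55420080), at 899.9, 950.3 and 571 CPM among Normal-titled and 2407, 2399 and 2461 CPM among Control-titled libraries. Sparc had a log2 change of 1.59 ± 0.192 (SE) at an edgeR adjusted p of 0.000246. Adamts2, which trims procollagen, was higher by 1.56 (72.7 ± 1.91 against 24.6 ± 13.5 CPM, edgeR adjusted p = 0.00628), and Ctsk, a collagen-degrading cathepsin, by 1.6 (29.1 ± 3.19 against 9.58 ± 2.87 CPM, edgeR adjusted p = 0.00067). Sfrp2, a secreted Wnt modulator of fibroblasts, was at 3.33, 3.83 and 1.65 CPM among Normal-titled and 13.3, 11.3 and 13.4 CPM among Control-titled libraries. Sfrp2 had a log2 change of 2.1 ± 0.292 (SE) at an edgeR adjusted p of 0.000683. The proteoglycan count was 8, 4 and 6 without Normal 1, 2 and 3 and 4, 4 and 4 without Control 1, 2 and 3 (with the Hba-a1 covariate 2 higher and 1 lower, median -0.0059). Several other matrix families were called in both directions, with 3 higher and 2 lower of 24 for ADAM and ADAMTS proteases, 2 higher and 2 lower of 16 for metalloproteinases and their inhibitors and 1 higher and 1 lower of 14 for lysyl oxidases and prolyl hydroxylases. Of 9 laminin genes 0 were called. The tendon and fibroblast markers had 3 of 8 higher and none lower, with 5 of the 8 above 0. The higher ones were Tnmd, Kera and Chad. Kera and Chad are small leucine-rich proteoglycans too, so this list partly repeats that family. Dcn and Pdgfra, both of fibroblasts, did not pass (log2 change -0.18 and 0.21, edgeR adjusted p = 0.533 and 0.552). The part of connective tissue in the samples was not tested.

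Interferon-inducible GTPases defend cells against intracellular microbes and are switched on by interferons through the response element whose core repeats GAAA. Repeats of that kind are visible in their promoters, so these are shown for 4 members, whose values follow. The 300-base windows, 250 before to 50 after the start, come from RefSeq on build GRCm38.p6, which is mm10, and are written 5′ to 3′ on the gene's strand. Capitals mark each match to TTTCNNTTTC or its reverse complement, searched on both strands. Tgtp1 is shown at chr11:48992197-48992496 (minus strand), Igtp at chr11:58199306-58199605 (plus strand), Gbp5 at chr3:142496684-142496983 (plus strand) and Irgm1 at chr11:48871371-48871670 (minus strand), where 2 matches overlap.
Tgtp1: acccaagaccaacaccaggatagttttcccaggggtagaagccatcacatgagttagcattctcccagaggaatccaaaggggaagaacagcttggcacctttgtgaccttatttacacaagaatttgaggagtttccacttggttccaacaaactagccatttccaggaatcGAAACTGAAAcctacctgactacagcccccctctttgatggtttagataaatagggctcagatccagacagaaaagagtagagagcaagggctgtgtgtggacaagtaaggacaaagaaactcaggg
Igtp: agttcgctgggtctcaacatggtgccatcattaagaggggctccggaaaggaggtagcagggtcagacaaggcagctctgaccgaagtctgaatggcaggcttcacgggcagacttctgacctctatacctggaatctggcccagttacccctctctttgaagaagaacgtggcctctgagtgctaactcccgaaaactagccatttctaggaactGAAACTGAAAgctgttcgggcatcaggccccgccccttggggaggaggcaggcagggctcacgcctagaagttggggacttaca
Gbp5: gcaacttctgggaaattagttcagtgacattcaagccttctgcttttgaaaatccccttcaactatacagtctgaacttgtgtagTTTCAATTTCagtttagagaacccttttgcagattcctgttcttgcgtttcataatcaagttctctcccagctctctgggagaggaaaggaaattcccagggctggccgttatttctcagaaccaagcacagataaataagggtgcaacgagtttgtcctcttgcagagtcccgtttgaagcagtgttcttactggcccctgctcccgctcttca
Irgm1: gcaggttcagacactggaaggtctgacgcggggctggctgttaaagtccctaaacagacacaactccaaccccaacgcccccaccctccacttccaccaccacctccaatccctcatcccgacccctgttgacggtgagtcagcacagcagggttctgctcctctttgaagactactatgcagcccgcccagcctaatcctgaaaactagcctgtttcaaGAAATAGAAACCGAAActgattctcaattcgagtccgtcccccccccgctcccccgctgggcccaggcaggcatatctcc

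The motif stood in 9 of the 10 family members that have a promoter in the table, beside 3.71% of tested genes and 3.99% of 27025 RefSeq genes with a promoter of the same length. Over all genes called higher it stood in 4.21%, and over those called lower in 5.35%. Irgm1, whose window is shown, was not called (log2 change 0.34, edgeR adjusted p = 0.628).

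The interferon-inducible GTPases had 9 of 18 tested members higher and 0 lower, and their median log2 change was 0.93. Gbp5, a guanylate-binding protein (chromosome 3, 142496934 to 142522344), was at 3.6, 2.01 and 2.72 CPM among Normal-titled and 13.8, 7.4 and 8.77 CPM among Control-titled (headed Normal) libraries. Gbp5 had a log2 change of 1.84 ± 0.315 (SE) at an edgeR adjusted p of 0.00281. Tgtp2, a GTPase only named as T cell-specific (chromosome 11, 49057196 to 49064212), was at 2.61, 2.3 and 2.14 CPM among Normal-titled and 25.9, 5.7 and 10.8 CPM among Control-titled libraries (log2 change 2.59 ± 0.493 (SE), edgeR adjusted p = 0.00515), and its near-copy Tgtp1, with which reads may be shared, at 2.79, 1.91 and 1.84 CPM among Normal-titled and 26, 5.3 and 9.58 CPM among Control-titled libraries (log2 change 2.64, edgeR adjusted p = 0.00898). Control 1 was the highest library in each, and every Control-titled library exceeded every Normal-titled one. In edgeR, Tgtp1 was not called without Normal 2 (adjusted p = 0.0513) and Control 1 (adjusted p = 0.0525). Igtp (log2 change 1.05, edgeR adjusted p = 0.0414) was not called without Normal 2 (adjusted p = 0.152), Control 1 (adjusted p = 0.231) and Control 3 (adjusted p = 0.0905). H2-Q9, a class I histocompatibility gene with near-identical relatives, was at 5.13, 6.7 and 5.34 CPM among Normal-titled and 24.6, 12.7 and 15.2 CPM among Control-titled libraries (log2 change 1.61 ± 0.269 (SE), edgeR adjusted p = 0.00238), again highest in Control 1. The family's mean log2 CPM, relative to the mean of the 6 libraries, was -0.33, -0.74 and -0.52 in the Normal-titled and 1.12, 0.04 and 0.43 in the Control-titled libraries. Called members numbered 10, 4 and 8 without Normal 1, 2 and 3 and 4, 10 and 6 without Control 1, 2 and 3 (with the Hba-a1 covariate 0 higher and 0 lower, median 0.75). Other interferon-induced genes, of the Ifi, Ifit, Oas and Isg groups, were called in both directions, 3 higher and 4 lower of 33. Their median log2 change was 0.54, with 21 of the 33 above 0, and their mean levels overlapped between the groups. Their count was 12, 4 and 6 without Normal 1, 2 and 3 and 4, 5 and 5 without Control 1, 2 and 3 (with the Hba-a1 covariate 0 higher and 0 lower, median -0.076).

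**Figure D4:**
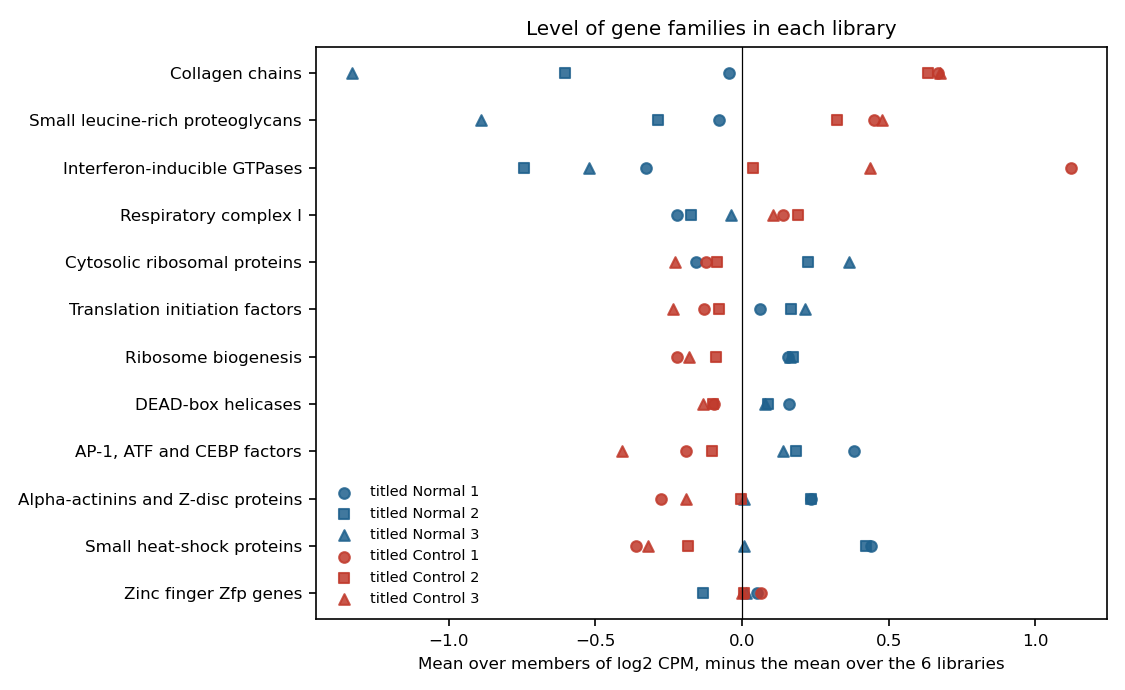
Mean log2 CPM of the members of 12 families in each library, less the mean over the 6 libraries, with 1 symbol a library. Collagens, proteoglycans and GTPases lie to the right in the Control-titled libraries (red). Initiation, ribosome biogenesis and DEAD-box genes (Ddx with Dhx genes) lie to the left. Normal 3 stands lowest for collagens (-1.33), Control 1 highest for GTPases (1.12), and Zfp genes show no separation.

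Polyamine enzymes had 4 of 14 tested members higher and 1 lower, with a median log2 change of -0.045 and 6 of the 14 above 0. Smox, spermine oxidase (chromosome 2, 131491858 to 131525183), was at 66.2, 64.1 and 105 CPM among Normal-titled and 313, 281 and 279 CPM among Control-titled (headed Normal) libraries. Smox had a log2 change of 1.89 ± 0.191 (SE) at an edgeR adjusted p of 6.97e-05. Amd1, which makes the aminopropyl donor for polyamines (chromosome 10, 40287458 to 40302188), was at 107, 104 and 138 CPM among Normal-titled and 909, 668 and 895 CPM among Control-titled libraries. Amd1 had a log2 change of 2.82 ± 0.18 (SE) at an edgeR adjusted p of 5.02e-06. Amd2, whose 3' end is nearly the same as that of Amd1, had a log2 change of 2.76 (edgeR adjusted p = 5.02e-06), so the 2 rows may count the same reads. Odc1, the rate-limiting ornithine decarboxylase (-0.65, edgeR adjusted p = 0.0313), moved the other way and was not called without Normal 2 (adjusted p = 0.0532), Normal 3 (adjusted p = 0.07), Control 1 (adjusted p = 0.0887), Control 2 (adjusted p = 0.126) and Control 3 (adjusted p = 0.112). The count of called members was 5, 3 and 5 without Normal 1, 2 and 3 and 3, 3 and 3 without Control 1, 2 and 3 (with the Hba-a1 covariate 3 higher and 0 lower, median 0.42).

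Creatine and adenylate enzymes, which buffer ATP, had 3 of 15 tested members higher and 1 lower. Gamt, the last enzyme of creatine synthesis (chromosome 10, 80258151 to 80261025), was at 5.13, 4.12 and 1.26 CPM among Normal-titled and 18.4, 21.5 and 19.3 CPM among Control-titled (headed Normal) libraries (log2 change 2.48 ± 0.351 (SE), edgeR adjusted p = 0.000759), and Ak1, the muscle adenylate kinase, at 445, 456 and 504 CPM among Normal-titled and 824, 833 and 671 CPM among Control-titled libraries. Ak1 had a log2 change of 0.73 ± 0.144 (SE) at an edgeR adjusted p of 0.0062. Ckm, which stores energy as phosphocreatine, did not pass (log2 change -0.05, edgeR adjusted p = 0.906). Of 17 glycolytic enzymes 4 were higher and 1 lower. Eno3, the muscle enolase (chromosome 11, 70653125 to 70662513), was at 2011, 1601 and 2122 CPM among Normal-titled and 3515, 3634 and 3349.5 CPM among Control-titled libraries. Eno3 had a log2 change of 0.87 ± 0.157 (SE) at an edgeR adjusted p of 0.00377. Hk2, the hexokinase that insulin raises, was the lower one, at 753, 679 and 527 CPM among Normal-titled and 284, 317 and 314 CPM among Control-titled libraries. Hk2 had a log2 change of -1.1 ± 0.185 (SE) at an edgeR adjusted p of 0.00251. Counts of called creatine and adenylate enzymes were 4, 2 and 6 without Normal 1, 2 and 3 and 3, 2 and 2 without Control 1, 2 and 3 (with the Hba-a1 covariate 0 higher and 1 lower, median 0.17), and of glycolytic enzymes 5, 5 and 7 without Normal 1, 2 and 3 and 5, 5 and 5 without Control 1, 2 and 3 (with the Hba-a1 covariate 1 higher and 1 lower, median 0.31).

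Called genes of complexes I to IV of the respiratory chain were all higher. In the Control-titled libraries (tables headed Normal) 6 of 45 complex I genes were higher and none lower (13.3%), with a median of 0.31, and 26 of the 45 had all Control-titled above all Normal-titled libraries (57.8%, beside 16.6% of all genes). Of 34 genes of complexes II to IV 4 were higher and 20 did not overlap in that direction. Cox7a1, the muscle form of a cytochrome oxidase subunit, was higher by 0.90 (742 ± 53.8 against 399 ± 30.3 CPM, edgeR adjusted p = 0.00162), and Ndufaf5, an assembly factor of complex I, by 0.87 (128 ± 14.4 against 70.0 ± 1.65 CPM, edgeR adjusted p = 0.00186). Called complex I genes numbered 8, 2 and 8 without Normal 1, 2 and 3 and 2, 1 and 1 without Control 1, 2 and 3 (with the Hba-a1 covariate 2 higher and 0 lower, median 0.43), and those of complexes II to IV 5, 1 and 4 without Normal 1, 2 and 3 and 1, 3 and 1 without Control 1, 2 and 3 (with the Hba-a1 covariate 1 higher and 0 lower, median 0.39). With the replicate number as a block 3 complex I genes were called.

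Of 26 genes of fatty acid and triglyceride synthesis 2 were higher and 2 lower. Fasn, the fatty acid synthase (chromosome 11, 120805958 to 120825166), was at 23.8, 19.9 and 25.2 CPM among Normal-titled and 65.2, 55.1 and 90.3 CPM among Control-titled (headed Normal) libraries (log2 change 1.61 ± 0.191 (SE), edgeR adjusted p = 0.000216), with Control 3, the library with the highest summed adipocyte markers, at the top. The part of adipocytes in this gene was not tested. Lpin1, which makes diacylglycerol, was lower, at 359.6, 505 and 583 CPM among Normal-titled and 226, 225 and 254 CPM among Control-titled libraries. Lpin1 had a log2 change of -1.04 ± 0.174 (SE) at an edgeR adjusted p of 0.00253. Acyl-CoA thioesterases, which free fatty acids from coenzyme A, had 1 of 8 tested members higher and 3 lower. Acot2, the mitochondrial form, was at 187, 136 and 52.3 CPM among Normal-titled and 35.4, 31.4 and 30.2 CPM among Control-titled libraries (log2 change -1.95 ± 0.327 (SE), edgeR adjusted p = 0.00244), and Acot7, a brain-type cytosolic form, was higher by 0.86 (31.7 ± 1.44 against 17.4 ± 0.805 CPM, edgeR adjusted p = 0.00205). Called thioesterases numbered 3, 4 and 3 without Normal 1, 2 and 3 and 3, 3 and 3 without Control 1, 2 and 3 (with the Hba-a1 covariate 0 higher and 2 lower, median -0.21).

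Solute carriers without the mitochondrial Slc25 family held 7 of 176 tested members higher and 10 lower (9.66%), close to the background, with a median log2 change of 0.071. The Slc25 family, which includes Slc25a37 below, had 4 of 37 higher and 4 lower (21.6%), with a median of 0.24. Slc38a2, an amino acid transporter that starvation induces (chromosome 15, 96687392 to 96699728), was at 458, 324 and 137 CPM among Normal-titled and 56.8, 68.5 and 60.2 CPM among Control-titled (headed Normal) libraries. Slc38a2 had a log2 change of -2.31 ± 0.318 (SE) at an edgeR adjusted p of 0.00067. Slc3a2, the shared heavy chain of amino acid exchangers, fell by 0.81 on the log2 scale (56.9 ± 0.969 against 100 ± 8.66 CPM, edgeR adjusted p = 0.00189). In the other direction Slc37a4, the glucose-6-phosphate carrier of the endoplasmic reticulum, was at 23, 21.4 and 26.8 CPM among Normal-titled and 80.2, 79.7 and 90.9 CPM among Control-titled libraries (log2 change 1.82 ± 0.161 (SE), edgeR adjusted p = 3.2e-05), and Slc41a3, of a magnesium transporter family, at 28, 36 and 35.3 CPM among Normal-titled and 131, 130.1 and 105 CPM among Control-titled libraries. Slc41a3 had a log2 change of 1.88 ± 0.164 (SE) at an edgeR adjusted p of 3.06e-05. The groups were apart in all 4, with Normal 3 lowest of the Normal-titled libraries for Slc38a2. The mitochondrial iron carrier Slc25a37, abundant in red-cell precursors, was at 88.4, 114 and 235 CPM among Normal-titled and 22.3, 24.3 and 22.2 CPM among Control-titled libraries and was lower in step with the erythroid markers given above (log2 change -2.67 ± 0.344 (SE), edgeR adjusted p = 0.000408). Leaving the Slc25 family aside, called carriers numbered 23, 14 and 25 without Normal 1, 2 and 3 and 13, 14 and 11 without Control 1, 2 and 3 (with the Hba-a1 covariate 2 higher and 8 lower, median -0.066).

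Clock genes were called in both directions, 4 of 19 higher and 5 lower (47.4%), with a median log2 change of 0.068. Dbp, a clock output factor that peaks late in the day (chromosome 7, 45705100 to 45710203), was at 57.2, 32.2 and 26.4 CPM among Normal-titled and 172, 159 and 142 CPM among Control-titled (headed Normal) libraries. Dbp had a log2 change of 2.03 ± 0.236 (SE) at an edgeR adjusted p of 0.000189. Nfil3, which represses the sites that Dbp activates, was at 32.8, 49.4 and 38.2 CPM among Normal-titled and 13.1, 18.6 and 15 CPM among Control-titled libraries. Nfil3 had a log2 change of -1.37 ± 0.193 (SE) at an edgeR adjusted p of 0.000759. Rora, a nuclear receptor that drives Bmal1, fell by 0.95 on the log2 scale (151 ± 9.8 against 292 ± 35.1 CPM, edgeR adjusted p = 0.0012). Arntl, the gene of Bmal1 itself, was at 6.57, 13.3 and 7.38 CPM among Normal-titled and 3.35, 3.2 and 4.25 CPM among Control-titled libraries (log2 change -1.33, edgeR adjusted p = 0.0176) and was not called without Normal 2 (adjusted p = 0.0949), Control 1 (adjusted p = 0.0805) and Control 2 (adjusted p = 0.0724). The hour of dissection is not given in the labels, so it and the groups cannot be told apart. Called clock genes numbered 12, 5 and 8 without Normal 1, 2 and 3 and 5, 5 and 6 without Control 1, 2 and 3 (with the Hba-a1 covariate 1 higher and 1 lower, median -0.095).

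Imprinted genes, expressed from 1 parental copy, had 7 of 28 tested members higher and 2 lower (median 0.06). Dlk1, a membrane protein of muscle growth (chromosome 12, 109452485 to 109463336), was at 9.99, 16.4 and 11.4 CPM among Normal-titled and 36, 34.5 and 29.6 CPM among Control-titled (headed Normal) libraries (log2 change 1.41 ± 0.224 (SE), edgeR adjusted p = 0.00172), and Ndn, necdin (chromosome 7, 62348277 to 62349928), at 21.5, 17.2 and 16.8 CPM among Normal-titled and 48.4, 39.5 and 41.9 CPM among Control-titled libraries. Ndn had a log2 change of 1.22 ± 0.157 (SE) at an edgeR adjusted p of 0.000407. Cdkn1c, the growth inhibitor p57, was higher by 0.76 (107 ± 8.98 against 63.6 ± 3.1 CPM, edgeR adjusted p = 0.00492). Impact, a translational regulator, was lower, at 28.3, 30.0 and 18 CPM among Normal-titled and 11.2, 9.7 and 8.95 CPM among Control-titled libraries. Impact had a log2 change of -1.35 ± 0.204 (SE) at an edgeR adjusted p of 0.00125. Called members numbered 10, 7 and 11 without Normal 1, 2 and 3 and 7, 7 and 5 without Control 1, 2 and 3 (with the Hba-a1 covariate 0 higher and 2 lower, median -0.04). In the insulin-like growth factor system 3 of 15 genes were higher and 2 lower (median log2 change 0.046). Igfbp5, the main binding protein of muscle, was at 141, 95.3 and 62.7 CPM among Normal-titled and 310.1, 327 and 309 CPM among Control-titled libraries (log2 change 1.66 ± 0.231 (SE), edgeR adjusted p = 0.000683), and Igfbp3, the main one of serum, at 61.7, 55.1 and 64.5 CPM among Normal-titled and 28, 24 and 30.9 CPM among Control-titled libraries. Igfbp3 had a log2 change of -1.13 ± 0.187 (SE) at an edgeR adjusted p of 0.0023. Igf1 (0.96, edgeR adjusted p = 0.0104) was not called without Normal 2 (adjusted p = 0.0574) and Control 3 (adjusted p = 0.0527). Called genes of this system numbered 4, 2 and 6 without Normal 1, 2 and 3 and 3, 4 and 2 without Control 1, 2 and 3 (with the Hba-a1 covariate 0 higher and 1 lower, median -0.20).

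**Figure D5:**
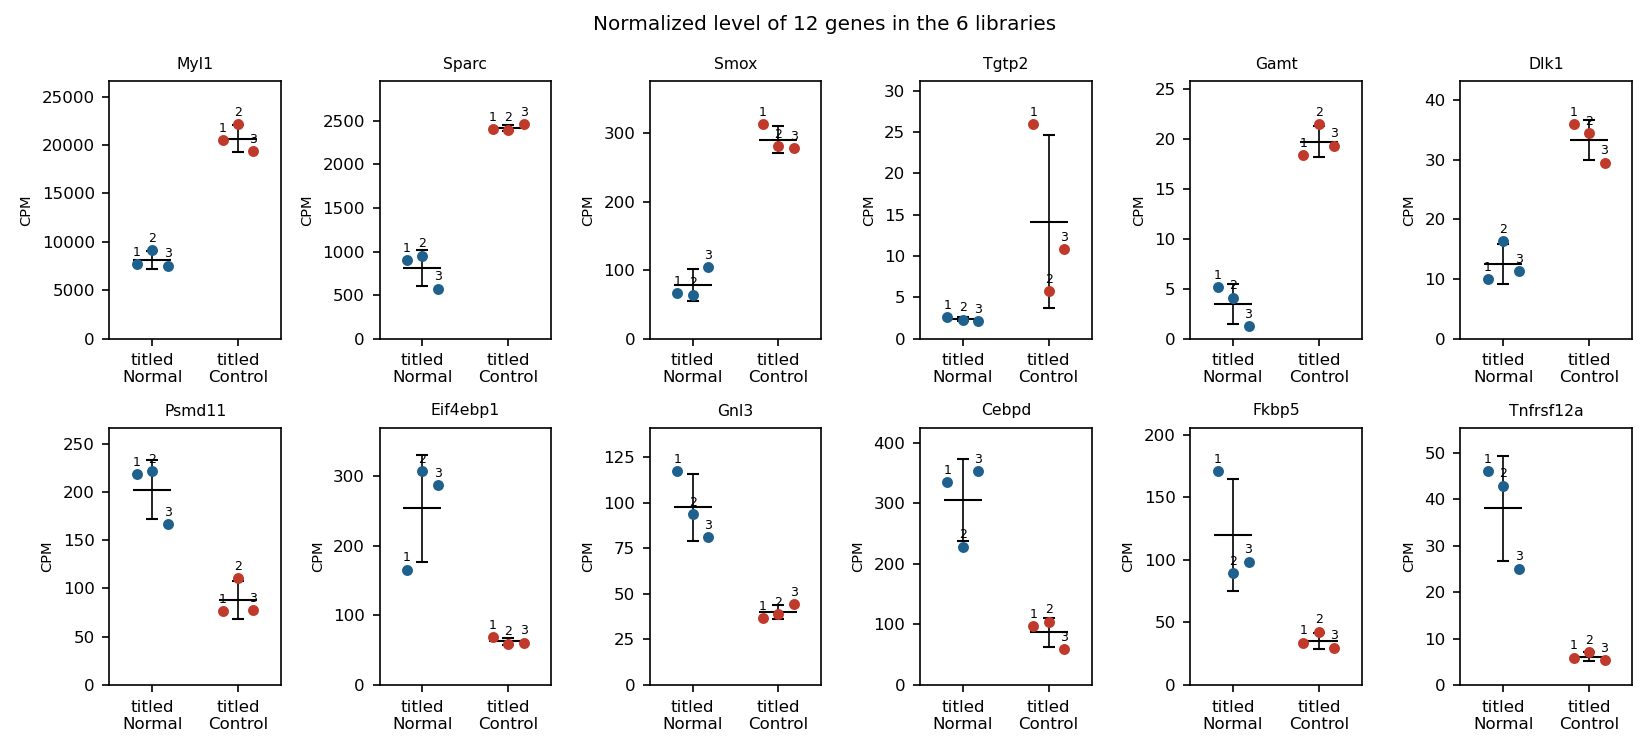
TMM-scaled CPM of 12 genes in each of the 6 libraries, on linear axes from 0, with points numbered by replicate, the mean as a line and the SD as bars (n = 3). The upper row holds genes higher and the lower row genes lower in the Control-titled libraries, and in all 12 the groups do not overlap.

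Several of the genes with the smallest p-values lay outside the families whose called members are counted above. F-box proteins, the family of Fbxo32, had 2 of 51 tested members higher and 2 lower (7.84%, beside 10.4% of all genes). Tripartite motif proteins, that of Trim63, had 2 of 41 higher and 2 lower (9.76%). Metallothioneins had 0 of 3 higher and 2 lower. Chemokines and their receptors, the family of Cxcl13, had 3 of 40 higher and 5 lower (20%). Fbxo32, a muscle ubiquitin ligase, was at 719, 1248 and 1463 CPM among Normal-titled and 174, 172 and 151 CPM among Control-titled (headed Normal) libraries, and Trim63, another, at 1222, 1912 and 1098 CPM among Normal-titled and 278, 308 and 237 CPM among Control-titled libraries (edgeR adjusted p = 2.49e-05 and 3.2e-05). Mt1, a metallothionein, was at 1375, 747 and 803 CPM among Normal-titled and 107, 121 and 151 CPM among Control-titled libraries (log2 change -2.95 ± 0.255 (SE), edgeR adjusted p = 3.06e-05), and Mt2 fell by 3.41 on the log2 scale (edgeR adjusted p = 4.46e-05). All 4 stood far below the Normal-titled values in every Control-titled library. The 5 higher genes with the smallest p were Amd1 and Amd2, described above, Actc1, C130080G10Rik and Cited4, a transcriptional co-regulator of muscle and heart (chromosome 4, 120666563 to 120667820), which was at 4.14, 4.21 and 4.46 CPM among Normal-titled and 26.7, 21.2 and 26.7 CPM among Control-titled libraries. Cited4 had a log2 change of 2.54 ± 0.185 (SE) at an edgeR adjusted p of 1.13e-05. The 5 lower ones were Fbxo32, Cxcl13, Ctla2a, Syne1 and Fam134b, a receptor for degradation of the endoplasmic reticulum (chromosome 15, 25843298 to 25973696), at 1752, 1357 and 1150.3 CPM among Normal-titled and 214, 224 and 206 CPM among Control-titled libraries. Fam134b had a log2 change of -2.73 ± 0.182 (SE) at an edgeR adjusted p of 5.02e-06. Cxcl13, a chemokine that draws B cells (chromosome 5, 95956939 to 95961068), was at 22, 20.2 and 19.5 CPM among Normal-titled and 1.41, 1.7 and 1.81 CPM among Control-titled libraries. Cxcl13 had a log2 change of -3.64 ± 0.277 (SE) at an edgeR adjusted p of 1.57e-05. Ctla2a, an inhibitor of cysteine proteases (chromosome 13, 60934155 to 60936625), was at 189, 189 and 197 CPM among Normal-titled and 55.2, 58.6 and 47.5 CPM among Control-titled libraries. Ctla2a had a log2 change of -1.83 ± 0.142 (SE) at an edgeR adjusted p of 1.57e-05. Syne1, nesprin 1, which ties nuclei to the cytoskeleton (chromosome 10, 5020192 to 5550692), was at 86.4, 109.7 and 113 CPM among Normal-titled and 32.2, 30.0 and 29.2 CPM among Control-titled libraries. Syne1 had a log2 change of -1.76 ± 0.151 (SE) at an edgeR adjusted p of 3.06e-05. In Cited4, Fam134b, Cxcl13, Ctla2a and Syne1 the groups did not overlap.

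Ankrd2, Col15a1, Col5a1, Col5a3, Col6a1, Csrp3, Eif3a, Eif5b, Fkbp9, Gbp5, Igtp, Il4ra, Il6ra, Nop58, Npm1, Nrap, Ogn, Osmr, Rora and Slc3a2 were chosen for naming after their values were seen. Positions are those of RefSeq on build mm10. Without a stated strand of counting, reads cannot be fully assigned where gene bodies overlap, which holds for 2410006H16Rik, Adamts2, Arntl, C130080G10Rik, Casq1, Cebpd, Ckm, Col15a1, Col5a1, Cryab, Csf2rb, Dbp, Eif2ak1, Eif3a, Eif3j2, Eif5b, Eno3, Fam134b, Fbxo32, Fkbp14, Fkbp5, Gclm, Gnl3, Igf1, Il6ra, Lpin1, Malat1, Mylk4, Mylpf, Ndn, Ndufaf5, Nop14, Nop58, Nrap, Odc1, Ogn, Rora, Slc25a37, Slc37a4, Smox, Syne1, Tgtp1, Tnfrsf12a and Tnnt3. More than 20% of the 40-base words at the 3' end are shared with another gene for Amd1, Amd2, C130080G10Rik, Eif3j2, Hba-a1, Hspb1, Myl1, Odc1, Rps27, Slc25a37, Tgtp1 and Tgtp2, and their counts may be split or doubled.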

How the data were processed

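RNA of gastrocnemius muscle was made into libraries from 500 ng with the Lexogen QuantSeq kit, which reads 3' ends, per the labels' protocols. Each deposited table holds whole-number counts per gene symbol as the authors made them. The submitters' processing notes list Bowtie2, edgeR and mm10, and the counting tool, strand and annotation are not given in the sources used here. The 6 libraries held 9989656 to 12333767 counts, so counting error is largest for genes at a few CPM.

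Counts as deposited were tested with edgeR 4.0.16 in R 4.3.3 (filterByExpr, TMM, quasi-likelihood F-test, Benjamini-Hochberg threshold 0.05), with all 8 libraries in 1 fit and the contrast titled Control minus titled Normal. The 3 groups entered without covariates. Log2 changes and their SE come from that fit. Shares of counts were compared by exact permutation. Families are symbol patterns, and the members and lists were chosen with earlier results of these data known. The text names, by rule, the 10 called genes with the largest gain and the 10 with the largest loss of CPM, up to 3 members per direction and family with a mean of at least 5 CPM and no overlap, up to 5 noncoding genes per direction by CPM, the 5 smallest p-values per direction and a short list of muscle, ligase, haemoglobin and metallothionein genes. A few other genes were added and are listed at the end. Some genes that the rule selects are not reported here.

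On counts simulated for 12957 genes in all 8 libraries, the fit recovered 2.99, 61.2 and 92.3% of genes changed by 1.5, 2 and 4-fold. Of the calls 5.50% were false and 0 had the wrong direction. The simulation gave every group the same spread per gene, whereas the Normal-titled libraries were more variable (median SD 0.285 against 0.180). It also changed far fewer genes than were called here, and the share recovered at a Benjamini-Hochberg threshold depends on that number. Whether its rates hold under these differences was not tested. The 18 alternatives were other scalings and filters, DESeq2 1.42.0, limma 3.58.1, the 6 libraries alone, a replicate block, other thresholds, haemoglobin and Rn45s left out, log2 Hba-a1 as a covariate, and each of the 6 libraries left out. Gene types, positions and promoters come from RefSeq GRCm38.p6, to which 12551 tested symbols matched directly and 584 by a synonym. Figures were drawn with matplotlib 3.10.9.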

Additional observations from a re-analysis of the deposited data

How the results depend on the processing

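The number of called genes (1376, with 658 higher and 718 lower in titled Control, headed Normal) stayed within 1.5 times under the other scalings, filters and tools, at 1364 with DESeq2 size factors in edgeR, 1838 without a filter, 1692 with DESeq2 and 1351 with limma, and 1351 of the 1376 were also called by DESeq2. It moved to 2201 (1078 and 1123) at an adjusted p of 0.1, to 320 (144 and 176) against a fold of 1.5, and to 382 (141 and 241, 287 of them in common) when log2 Hba-a1 entered as covariate. The highest quintile of expression then held 671, 95 and 166 called genes and the lowest 245, 63 and 18, and 5 remained in the lowest with a mean of at least 5 CPM, since few of its genes reach that. Leaving out single libraries gave 608 to 1858 called genes, 299 to 872 higher, 304 to 986 lower, 210 to 686 in the highest and 64 to 183 in the lowest quintile. The share of calls that were higher was 47.8%, and 55.3% with upper-quartile scaling.

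With the Hba-a1 covariate 3372 of 13174 log2 changes turned sign (25.6%), of which 17 among the 1376 called genes, as did the medians of 33 of 98 families with at least 10 tested members. Among the genes chosen for naming, the log2 change was then 0.34 for Ckm, -0.0059 for Chad, 0.0035 for Rab12, -0.18 for C1qtnf6, -0.016 for Ltbp4 and 0.71 for Rn4.5s, and 3.70e-08 for Hba-a1 itself by construction; for the others the cause was not tested. Ckm ran from -0.16 to 0.13 and Tnnt3 from -0.073 to 0.25 without single libraries, and neither was called.

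The replicate numbers did not pair the samples: deviations of same-numbered libraries correlated at -0.067, -0.019 and -0.042. A replicate block on those numbers gave 1218 called genes (603 higher, 615 lower). On simulated counts, in which few genes were changed, changes of 1.5-fold were mostly missed, so a gene that was not called may still differ.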
